A study of Mus musculus with 12 samples.

Results

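Pecam1, Cdh5 and Emcn encode surface proteins by which endothelial cells are recognised, and their transcripts were followed here as a gauge of the endothelial content of CD31+ cells isolated from mouse lung. The genes were taken by name and are 3 of the 9338 genes that the deposited tables list in at least 1 of 4 comparisons. RNA was sequenced from 12 male mice on a C57Bl/6J background, 3 in each of 4 groups, and each mouse gave 1 library. All mice carried TET2fl/fl alleles and all received 40 mg/kg tamoxifen daily for 3 days when they were 6 to 8 weeks old. TET2 KO mice also carried Cdh5-CreERT2, a tamoxifen-inducible recombinase driven by the promoter of Cdh5, whereas WT mice were Cre-negative. Mice then received chow with 13% of its energy from fat or a high-fat diet (HFD) with 60%, for 20 weeks. The groups are named WT chow, WT HFD, TET2 KO chow and TET2 KO HFD. A transgene that uses regulatory DNA of Cdh5 was thus present in both TET2 KO groups and absent from both WT groups.

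Pecam1 encodes CD31, an immunoglobulin-superfamily adhesion molecule of endothelial junctions that leukocytes and platelets also carry. Cdh5 encodes VE-cadherin, the calcium-dependent adhesion molecule of endothelial adherens junctions, which is largely restricted to endothelium. Emcn encodes endomucin, a heavily glycosylated sialomucin of the luminal surface that is abundant on capillary and venous endothelium, where it hinders leukocyte adhesion. The cells were selected with beads against the CD31 protein, so that the product of Pecam1 is also the handle of the isolation. In such a bulk sample, fewer endothelial cells and less RNA per endothelial cell cannot be told apart.

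On mm10, Pecam1 (ENSMUSG00000020717) lies on the minus strand at chr11:106654217-106750628, Cdh5 (ENSMUSG00000031871) on the plus strand at chr8:104101625-104144511, and Emcn (ENSMUSG00000054690) on the plus strand at chr3:137341067-137432185. All are protein-coding, with gene lengths of 6228, 4203 and 5409 bases, and 0 other genes of GENCODE release M21 have exons that overlap theirs. The RefSeq promoter table used here held an entry for Emcn. The 239 bases before the first base of that gene are shown because Emcn changed with diet in both genotypes, and because ETS proteins, a family of transcription factors prominent in endothelium, bind sites built around the letters GGAA. Capitals mark GGAA on either strand (GGAA or TTCC), at chr3:137340828-137341066 of GRCm38.p6, plus strand:
Emcn: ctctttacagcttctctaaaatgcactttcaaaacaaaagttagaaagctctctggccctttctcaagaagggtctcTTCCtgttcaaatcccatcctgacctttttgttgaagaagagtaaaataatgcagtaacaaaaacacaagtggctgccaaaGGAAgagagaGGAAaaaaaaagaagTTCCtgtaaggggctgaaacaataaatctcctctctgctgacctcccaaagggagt
The window holds 4 such matches, their first letters 162, 81, 71 and 56 bases before the gene. Of 32851 promoter windows of the same length, 92.6% held at least 1 match and 30.2% held 4 or more. A longer form that contains it, AGGAAG or its reverse complement, matched 2 times. It was present in 28.3% of all windows, and 2 or more times in 5.69%. The SOX-type letters AACAAT matched 1 time, 39 bases before the gene, against 9.2% of all windows with a match on either strand, and GATAA matched 0 times, against 22% of windows. These are matches of letters only.

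The libraries held between 36.7 and 56.8 M reads counted on genes, with a median of 39.6 M, and WT HFD replicate 1 was the deepest. FPKM, the count scaled by gene length and by the library's total, is used below for levels, and log2 fold changes come from the raw counts. A table lists a gene if its unadjusted p in the study's own test was under 0.05. Pecam1 and Cdh5 were listed for HFD against chow in WT and for TET2 KO against WT on HFD, which gives values in 9 libraries, and their levels in TET2 KO chow were not analysed here. Emcn was also listed for HFD against chow in TET2 KO and therefore has values in all 12. Tet2 itself was listed only for HFD against chow in WT, so that in the values used here the genotype of the TET2 KO libraries rests on the labels. The paper separately reports recombination of the floxed allele, seen by PCR in lung CD31+ cells of Cre-positive mice after tamoxifen.

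Cdh5 and Pecam1 were among the abundant transcripts of these cells and Emcn was not. Averaged over the 6 WT libraries, the FPKM of Cdh5 ranked 66th and that of Pecam1 140th among 7330 listed genes, whereas Emcn ranked 2593rd. All 3 endothelial transcripts were present in every library with a value, with at least 8237 reads on Pecam1, 7372 on Cdh5 and 419 on Emcn. Transcripts of other lung cells were also high. Scgb1a1, the secretoglobin of club cells, stood at 5038 ± 756 FPKM in WT chow, 3358 ± 1186 in WT HFD and 2700 ± 364 in TET2 KO chow (SD, n = 3), above Cdh5 in each WT library.

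Pecam1 was lowest in WT chow, highest in WT HFD and between them in TET2 KO HFD. All 3 genes were listed both for WT HFD against WT chow and for TET2 KO HFD against WT HFD. That WT HFD stands apart from both groups was therefore set by the listing, and the levels of the 3 genes are a description. In WT chow its level was 44.1, 36 and 79.9 FPKM in replicates 1 to 3, a mean of 53.3 ± 23.4 (SD, n = 3). In WT HFD it was 146, 130 and 87.2 FPKM, a mean of 121 ± 30.4. Every WT HFD library lay above every WT chow library, although WT chow replicate 3 came close to WT HFD replicate 3. Listed genes were selected for a difference in this contrast, and the share of all of them without overlap was not computed. In TET2 KO HFD the level was 94.3, 66.6 and 66.6 FPKM, a mean of 75.8 ± 16. Replicate 1 of that group exceeded the lowest WT HFD library, and the other replicates lay below the highest WT chow library.

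Cdh5 had the same order of groups with a wider span. Its level in WT chow was 56.1, 47.8 and 118 FPKM, a mean of 74 ± 38.4 (SD, n = 3). In WT HFD it was 290, 222 and 149 FPKM, a mean of 220 ± 70.4. The WT groups did not overlap, which for a gene listed in this contrast is a description, and the highest chow library was again replicate 3. In TET2 KO HFD the level was 158, 82 and 84.5 FPKM, a mean of 108 ± 43.1, so that replicate 1 alone reached the WT HFD range. Across its 9 libraries Cdh5 spanned 6.06-fold and Pecam1 4.06-fold.

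Emcn, at a few FPKM, varied least of the 3 genes in WT chow. It measured 2.14, 2.32 and 2.67 FPKM in WT chow (2.37 ± 0.27, SD, n = 3) and 2.67, 2.6 and 1.96 FPKM in TET2 KO chow (2.41 ± 0.392). The chow groups therefore lay on top of each other. In WT HFD it measured 8.9, 9.52 and 5.41 FPKM (7.94 ± 2.21), and in TET2 KO HFD 7.25, 3.45 and 3.55 FPKM (4.75 ± 2.17). Every HFD library lay above every chow library, a description as well, since Emcn was listed for the diets in both genotypes. Replicate 1 of TET2 KO HFD was again far above the other replicates of its group, at 2.07 times their mean, as against 1.42 times for Pecam1 and 1.9 times for Cdh5.

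**Figure D1:**
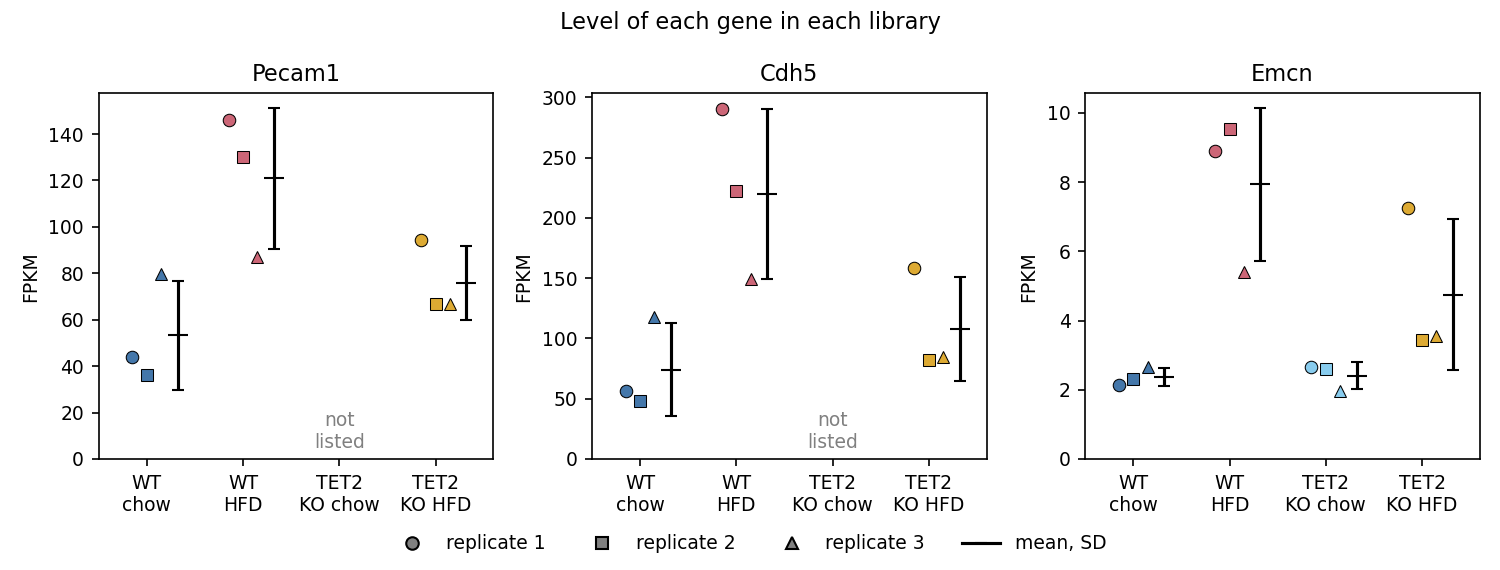
FPKM of Pecam1, Cdh5 and Emcn in each library (points, shape by replicate) with the group mean and SD (bars, n = 3). WT HFD stands above WT chow for all 3 genes, TET2 KO HFD lies between them, and Emcn is at 2.37 and 2.41 FPKM on average in the chow groups. All 3 genes were listed for a difference of WT HFD from WT chow and from TET2 KO HFD.

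The groups could be ordered by mean FPKM, but most neighbours in that order overlapped. For Pecam1 and Cdh5 the order was WT HFD, TET2 KO HFD, WT chow, and for Emcn it was WT HFD, TET2 KO HFD, TET2 KO chow, WT chow. Of 7 pairs of neighbours, TET2 KO HFD and TET2 KO chow did not overlap for Emcn, with an exact two-sided permutation p of 0.1, the smallest that 3 libraries against 3 allow, and 0.35 after Benjamini-Hochberg adjustment over the 7 pairs. Emcn has values in TET2 KO chow because the study listed it for this same pair. The neighbours were also ordered by the means that were then compared, so the p-values of neighbours are a description. TET2 KO HFD and WT chow overlapped for Pecam1 and Cdh5, with an exact permutation p of 0.3 for each gene (adjusted p = 0.35). TET2 KO chow and WT chow differed for Emcn by 0.01 on the log2 scale, with an exact permutation p of 0.9.

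HFD feeding of WT mice was accompanied by higher transcript levels of all 3 genes. In edgeR's quasi-likelihood test on the counts of all listed genes, Emcn rose by 1.75 on the log2 scale (SE 0.23, 95% interval 1.21 to 2.29), that is 3.36-fold. Cdh5 rose by 1.58 (SE 0.40, 0.64 to 2.51), or 2.98-fold, and Pecam1 by 1.19 (SE 0.33, 0.40 to 1.97), or 2.28-fold. A gene is referred to as called where its edgeR p before adjustment is under 0.05, the study's own threshold, and the 3 genes were all called higher. Of the 23768 genes over which the study adjusted, 13.0% were called higher in this comparison (only listed genes can be counted as called), and of the 7330 listed genes 42.4% were. Since a gene was listed because it had passed the study's test in the same contrast, the count of 3 is a description. After Benjamini-Hochberg adjustment over 23768 genes the edgeR p was 0.0357 for Emcn, 0.0603 for Cdh5 and 0.073 for Pecam1.

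WT chow replicate 3 stood apart from its group in this comparison. Its Cdh5 level was 2.27 times and its Pecam1 level 1.99 times the mean of the other WT chow libraries, while Emcn was at 1.2 times. The same library was raised for most of the endothelial transcripts examined: over 33 endothelial genes with values in the 9 libraries, the median of this ratio was 2.09, and it exceeded 1.5 for 28 of them. The share over all genes with values in these libraries was not computed. The rise was not confined to endothelial genes. Sftpb, a lung epithelial gene, stood at 292 FPKM in this library, against 111 and 107 FPKM in the other WT chow libraries. Of 5 listed epithelial genes, Ager and Hopx were also highest there in WT chow, while Epcam and Scgb1a1 were not. Without this library the log2 fold changes with HFD in WT were 2.09 for Cdh5, 1.60 for Pecam1 and 1.84 for Emcn.

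Emcn could be followed in both genotypes. In TET2 KO mice it rose with HFD by 0.98 on the log2 scale (SE 0.32, 0.24 to 1.72), or 1.97-fold, and was called. Of the 19511 genes the study adjusted, 2.13% were called higher in this comparison, and of the 1628 listed genes 29.3% were. The adjusted edgeR p was 0.706. Without TET2 KO HFD replicate 1 the log2 fold change was 0.54, and Emcn was still called. The scaling also bore on it: under TMM scaling the median of all listed genes moved by 0.27 and Emcn stood at 1.28.

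The diet effect on Emcn was smaller in TET2 KO than in WT mice, by 0.76 on the log2 scale, but this difference was not called. In a fit of the 975 genes whose listings gave counts in all libraries, the interaction of genotype and diet was -0.76 (SE 0.43, -1.71 to 0.18, edgeR, adjusted p = 0.179 over 975 genes). These genes had passed the study's filter in more than 1 comparison. The adjustment ran over this selected set alone, so its values are not on equal terms with the other adjusted values. The interaction is the genotype difference on HFD minus that on chow. Emcn passed the study's filter for the genotypes on HFD, with a lower mean in TET2 KO, and did not pass it on chow. The sign of the interaction, and part of its size, were therefore set by this selection. The interaction is a description, under the main setting and under the alternatives. The result turned on single libraries and on the scaling. It was called at -1.21 (edgeR, adjusted p = 0.0264) without TET2 KO HFD replicate 1, at -0.98 (edgeR, adjusted p = 0.0731) without WT HFD replicate 3, and at -1.16 (edgeR, adjusted p = 0.0293) under TMM scaling, with adjusted values from 0.0264 to 0.361 over all alternatives. The same test could not be made for Pecam1 and Cdh5, whose levels in TET2 KO chow were not analysed here.

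On HFD, Cdh5 and Pecam1 were lower in TET2 KO than in WT cells. Cdh5 fell by 1.02 on the log2 scale (SE 0.33, -1.80 to -0.24), to 0.494 times the WT level, and was called. Pecam1 fell by 0.67 (SE 0.24, -1.22 to -0.11), to 0.629 times, and was called too. Emcn differed by -0.74 (SE 0.35, -1.55 to 0.08), and was not called. The count was thus 2 of 3 genes called lower, beside 7.96% of the 18703 genes the study adjusted and 39.1% of the 3939 listed genes. Adjusted over 18703 genes, the edgeR p-values were 0.241, 0.248 and 0.344 for Cdh5, Pecam1 and Emcn.

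The groups overlapped for each gene, and the calls depended on single libraries. The Cdh5 call was lost without WT HFD replicate 1 (-0.77), TET2 KO HFD replicate 2 (-0.85) or TET2 KO HFD replicate 3 (-0.86). The Pecam1 call was lost without WT HFD replicate 1 (-0.51), WT HFD replicate 2 (-0.61), TET2 KO HFD replicate 2 (-0.58) or TET2 KO HFD replicate 3 (-0.58). Conversely, Emcn was called without TET2 KO HFD replicate 1 (-1.19) or WT HFD replicate 3 (-0.95). The WT HFD libraries entered this comparison and that of the diets in WT, so that the results are not separate.

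**Figure D2:**
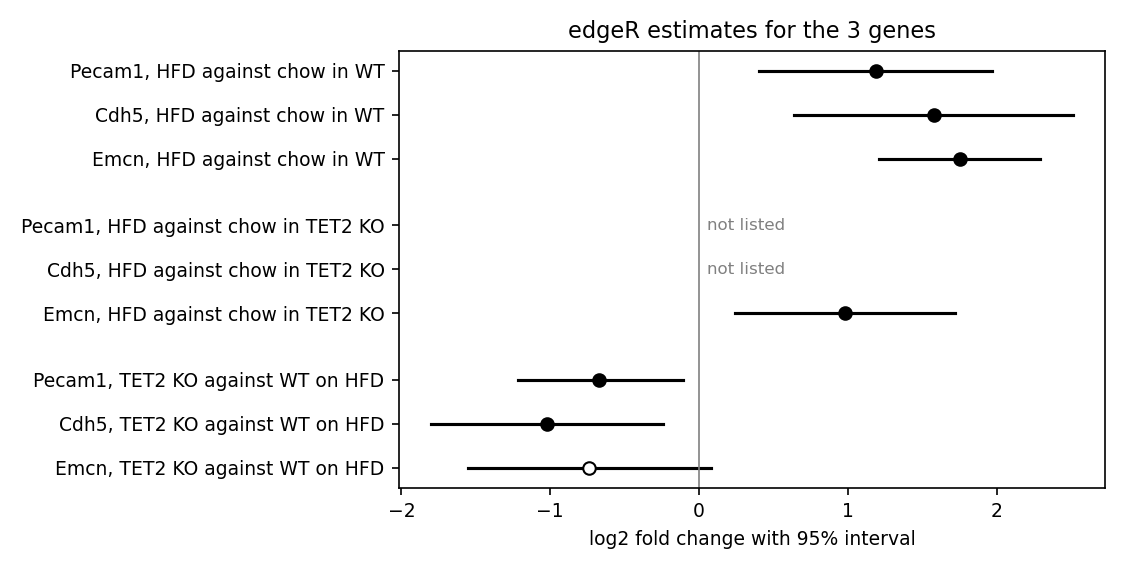
Log2 fold change (x axis) and 95% interval from edgeR for each gene and comparison, with filled points for an unadjusted p under 0.05. All 3 genes are above 0 with HFD in WT, Emcn alone was listed in TET2 KO, and the interval of Emcn for TET2 KO against WT on HFD reaches 0.08.

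On chow, none of the 3 genes was listed for TET2 KO against WT. No fold change was therefore fitted, and the Emcn levels given above are the only values for this pair of groups.

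Ratios between the genes within a library do not depend on its depth or scaling. Pecam1 and Cdh5 ordered the 9 libraries alike, from WT HFD replicate 1 at the top to WT chow replicate 2 at the bottom, except that TET2 KO HFD replicates 2 and 3, at nearly equal levels, changed places. Their ratio nevertheless varied between libraries and was lowest in those of WT HFD. Pecam1 was at 0.786, 0.754 and 0.677 of Cdh5 in WT chow, at 0.504, 0.586 and 0.585 in WT HFD, and at 0.597, 0.812 and 0.787 in TET2 KO HFD. Every WT HFD library lay below every WT chow library and below every TET2 KO HFD library. The mean log2 ratio was lower in WT HFD than in WT chow by 0.40 (a difference of -0.40, SE 0.10) and was higher in TET2 KO HFD than in WT HFD by 0.38 (SE 0.16). Each comparison had an exact two-sided permutation p of 0.1, the smallest possible, and 0.3 after adjustment over 6 ratio tests. The same WT HFD libraries entered both, and a difference between groups was not established. The cells were isolated by CD31, the product of Pecam1, and the part of this step in the ratios was not tested.

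Emcn was less closely tied to the other genes on chow. The Emcn to Cdh5 ratio was 0.0381, 0.0485 and 0.0226 in WT chow, 0.0307, 0.0429 and 0.0363 in WT HFD, and 0.0459, 0.042 and 0.042 in TET2 KO HFD. It differed by 0.07 on the log2 scale (SE 0.35) between the diets in WT, with an exact permutation p of 0.9, and this difference was -0.24 without WT chow replicate 3. The lowest ratio was that of WT chow replicate 3, the library in which Cdh5 and Pecam1 were raised and Emcn was not. The Pecam1 to Emcn ratio was 20.6, 15.6 and 29.9 in WT chow, 16.4, 13.7 and 16.1 in WT HFD, and 13, 19.3 and 18.8 in TET2 KO HFD, and the groups overlapped.

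**Figure D3:**
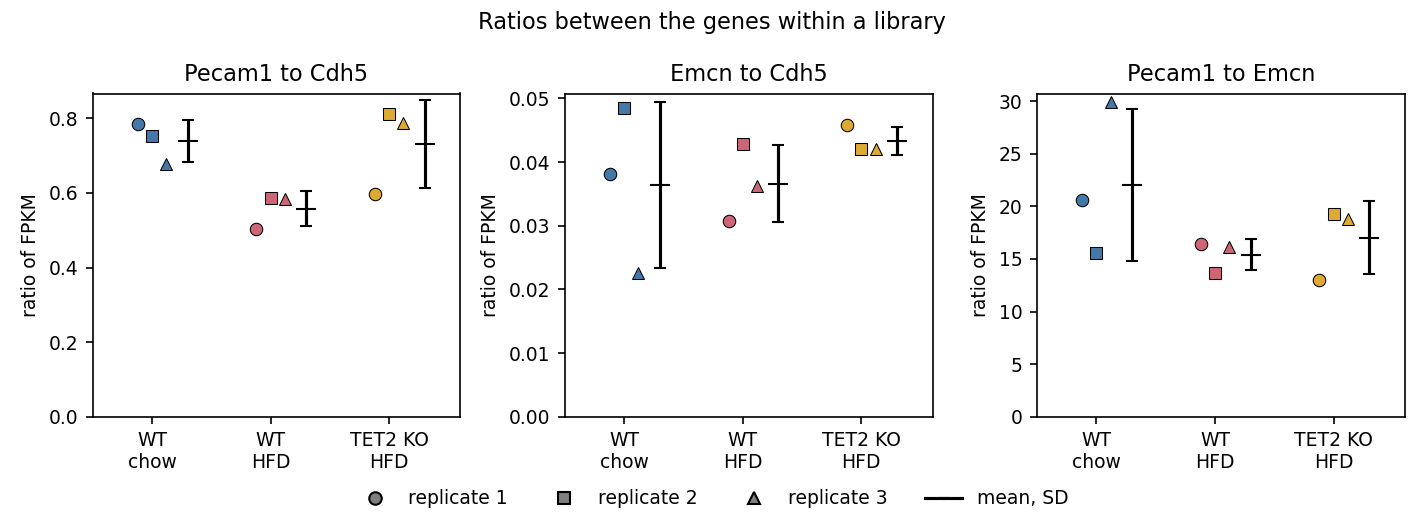
Ratio of FPKM between pairs of the 3 genes in each library (points, shape by replicate), with the group mean and SD (bars, n = 3). The Pecam1 to Cdh5 ratio of the WT HFD libraries, at 0.504 to 0.586, is below that of all other libraries, and WT chow replicate 3 has the lowest Emcn to Cdh5 ratio, 0.0226.

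The genes whose profiles were most like those of the 3 genes were sought among listed genes with a mean of at least 10 FPKM. Values were required in all libraries in which the member had values. Such genes had passed the study's filter in comparisons of the same groups, so that part of the likeness was set by the listing. Likeness was measured by the root-mean-square difference of log2(FPKM + 1) after centring each gene on its mean. For Cdh5 the nearest were Tspan9 (0.07), Tspan7 (0.08), Adgrl4, Notch4 and Tie1 (0.09 each), out of 824 genes over 9 libraries, while Cdh5 itself varied by 0.82 on this scale. For Pecam1 they were Lysmd2 (0.09), Vegfa (0.13), Lamb2 (0.14), Ddah2 and Npr1 (0.15 each), against a variation of 0.61. Cdh5 was in place 68 for Pecam1, at 0.23. For Emcn, over 12 libraries and 229 genes, the nearest were Pcp4l1 (0.26), Scn7a (0.31), Plscr3 (0.33), Tspan8 (0.34) and Serpinb9 (0.38), with Emcn itself at 0.63. The nearest genes to Emcn were thus farther away than those of Cdh5 and Pecam1, in a smaller set of genes and over more libraries. Emcn itself reached at most 9.52 FPKM, so the added 1 weighs more on it, and its distances are not on equal terms with the others.

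Other endothelial genes were taken from 6 lists of 68 genes in all. With HFD in WT, 44 of the 68 were listed, all 44 with a higher level, and 42 were called higher. Beside them, 13.0% of the genes the study adjusted and 42.4% of the 7330 listed genes were called higher. The study had listed the 44 by its test of this same contrast, so the count of 42 was largely set by the listing. Their median log2 fold change was 1.27, beside -0.32 for all listed genes. After adjustment 12 of them had an edgeR p under 0.05. The medians of the lists may be set beside the 3 genes, at 1.19 to 1.75: 1.66 for surface sialomucins and lectin-like glycoproteins, 1.39 for transcription factors, 1.25 for junction and adhesion molecules, 1.20 for receptors and 0.59 for cytoplasmic partners of VE-cadherin and CD31.

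Among the sialomucins and related glycoproteins, the class to which endomucin belongs, 8 of 10 genes were listed and all 8 were called higher with HFD in WT. Thbd, the thrombin receptor thrombomodulin, rose by 1.66 on the log2 scale (SE 0.37) from a mean of 99.6 to 313 FPKM. Podxl, the sialomucin podocalyxin, rose by 1.92 (SE 0.35), Cd93 by 1.60 (SE 0.47) and Egfl7, a secreted endothelial factor, by 1.66 (SE 0.45). Among junction molecules, 8 of the 13 genes were called higher. Cldn5, the main claudin of endothelial tight junctions, rose by 1.29 (SE 0.45) from 147 to 359 FPKM, Icam2, a constitutive leukocyte ligand, by 1.49 (SE 0.25), Esam by 1.25 (SE 0.43) and Mcam by 0.87 (SE 0.31).

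Of 13 receptors, 10 were called higher with HFD in WT. Calcrl and Ramp2, which together form the adrenomedullin receptor, rose by 1.47 (SE 0.35) and 1.68 (SE 0.42) on the log2 scale. Acvrl1, a receptor of the BMP family, rose by 1.10 (SE 0.32), and Tie1, an orphan partner of the angiopoietin receptor, by 1.54 (SE 0.37). The transcription factors had 11 of 16 genes called higher, among them Sox18 by 2.24 (SE 0.34), the shear-responsive Klf2 by 1.04 (SE 0.26) and Klf4 by 0.52 (SE 0.14), and the hypoxia-inducible factor Epas1 by 1.39 (SE 0.39). The cytoplasmic partners, with the lowest median of these lists, had 5 of 12 genes called higher. They included the catenins Jup (1.07, SE 0.22) and Ctnna1 (0.81, SE 0.19), the phosphatase Ptpn6 (0.54, SE 0.13) and the kinase Fyn (0.47, SE 0.12), and the latter pair is expressed by leukocytes as well. None of the 4 inducible leukocyte adhesion molecules was listed.

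On HFD, 37 of the 68 genes were listed for TET2 KO against WT, all 37 with a lower level in TET2 KO, and 31 were called lower. Beside them, 7.96% of the genes the study adjusted and 39.1% of the 3939 listed genes were called lower. The median log2 fold change was -0.93, beside 0.33 for all listed genes and -0.67 to -1.02 for the 3 genes. No edgeR p of the 37 stayed under 0.05 on adjustment (0 genes). DESeq2 called 35 of them lower before adjustment. The study had listed them by DESeq2 in this same contrast, so the counts of 31 and 35 were both largely set by the listing. Cd93 fell by 1.32 (SE 0.30), Thbd by 1.16 (SE 0.23), Plvap, a protein of endothelial fenestrae and caveolae, by 1.11 (SE 0.36) and Podxl by 1.09 (SE 0.35). Icam2 fell by 1.03 (SE 0.21), Cldn5 by 1.02 (SE 0.28), Esam by 0.96 (SE 0.29) and Mcam by 0.90 (SE 0.30). Among receptors, Ramp2 fell by 1.25 (SE 0.30), Eng by 1.07 (SE 0.34), Calcrl by 1.06 (SE 0.37) and Acvrl1 by 0.96 (SE 0.33). Among transcription factors, Sox18 fell by 1.38 (SE 0.39), Sox17 by 1.23 (SE 0.34), Gata2 by 0.87 (SE 0.31) and Epas1 by 0.82 (SE 0.33), and among the cytoplasmic partners Jup fell by 0.73 (SE 0.25), Ctnna1 by 0.61 (SE 0.18) and Afdn, the actin-binding afadin, by 0.45 (SE 0.16). The count of 31 fell to 14 without TET2 KO HFD replicate 2, to 17 without TET2 KO HFD replicate 3 and to 15 without WT HFD replicate 1.

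**Figure D4:**
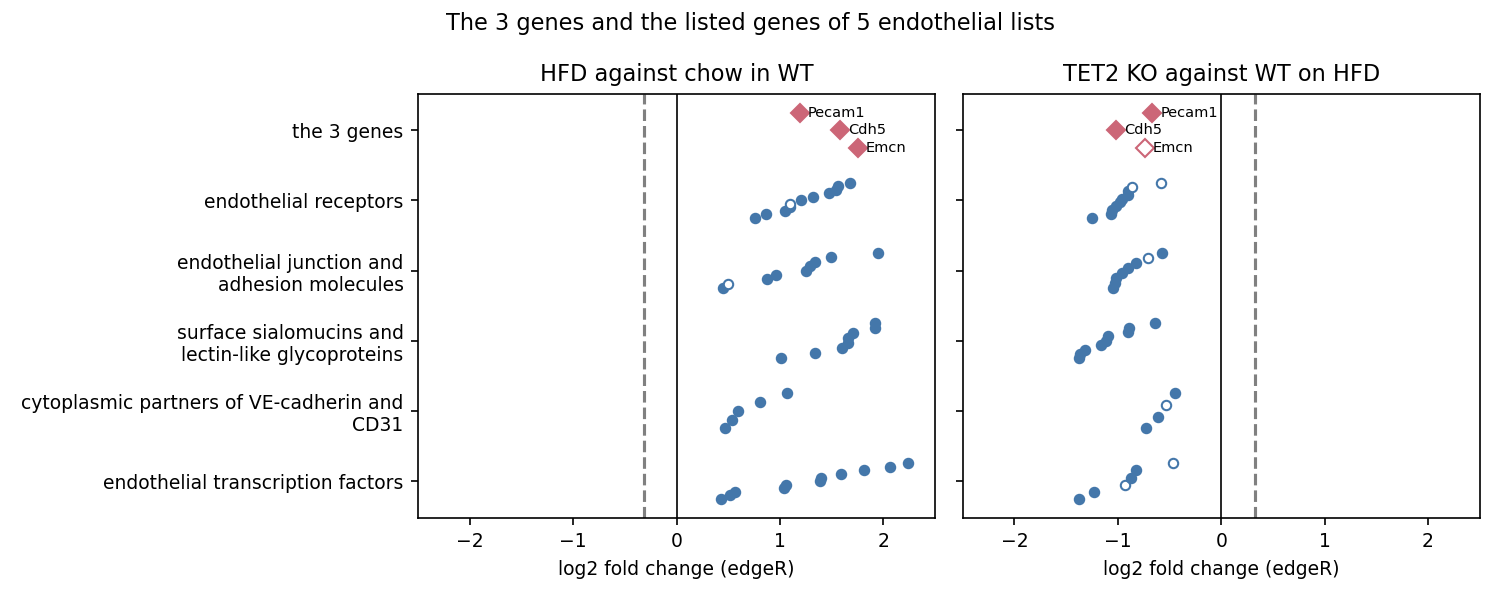
Log2 fold change from edgeR (x axis) of the 3 genes (diamonds) and of each listed gene of 5 endothelial lists (circles), filled where the unadjusted p was under 0.05. The dashed line is the median of all listed genes, -0.32 with HFD in WT and 0.33 for TET2 KO against WT on HFD, and all listed endothelial genes lie on the side of 0 opposite to it.

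Few of these genes were listed beside Emcn for HFD against chow in TET2 KO. Of the 68, 2 were listed, both with a higher level. Vcam1, an inducible ligand for leukocyte integrins, rose by 1.19 on the log2 scale (SE 0.48, edgeR, adjusted p = 0.731) from a mean of 0.951 to 2.18 FPKM, and this call was lost if TET2 KO HFD replicate 1, TET2 KO HFD replicate 2 or TET2 KO chow replicate 2 was left out. When the genotypes were compared on chow, 6 of the 68 genes were listed, all with a higher mean in TET2 KO, and 2 were called, Sox18 at 1.44 (SE 0.52) and Icam2 at 0.71 (SE 0.28), beside 1.88% of the 18463 genes the study adjusted and 30.6% of the 1298 listed genes called higher. The number called was 0 if WT chow replicate 1, WT chow replicate 2 or TET2 KO chow replicate 1 was left out, and 6 if replicate 3 of either chow group was. These 6 genes (Calcrl, Ramp2, Icam2, Podxl, Gata2 and Sox18) are the list genes with values in all 12 libraries, and they were set beside Emcn after their values were seen. They have values in all libraries because they passed the study's filter for the genotypes on chow, each with a higher mean in TET2 KO, a filter that Emcn did not pass.

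That the 6 genes are high in TET2 KO chow and Emcn is not was therefore set by how they were chosen, and the values are a description. In TET2 KO chow replicate 1 their summed level was 533 FPKM, against 233 and 213 FPKM in the other TET2 KO chow libraries and 434 to 682 FPKM in WT HFD. Emcn was at 2.67 FPKM in that library, beside 1.96 to 2.67 FPKM in the other chow libraries. In WT chow replicate 3 the 6 genes summed to 249 FPKM, against 134 and 129 FPKM in the other WT chow libraries, with Emcn again at 2.67 FPKM. In TET2 KO HFD replicate 1, by contrast, Emcn and the 6 genes were both raised, the latter to 356 FPKM from 212 and 181 FPKM in replicates 2 and 3.

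**Figure D5:**
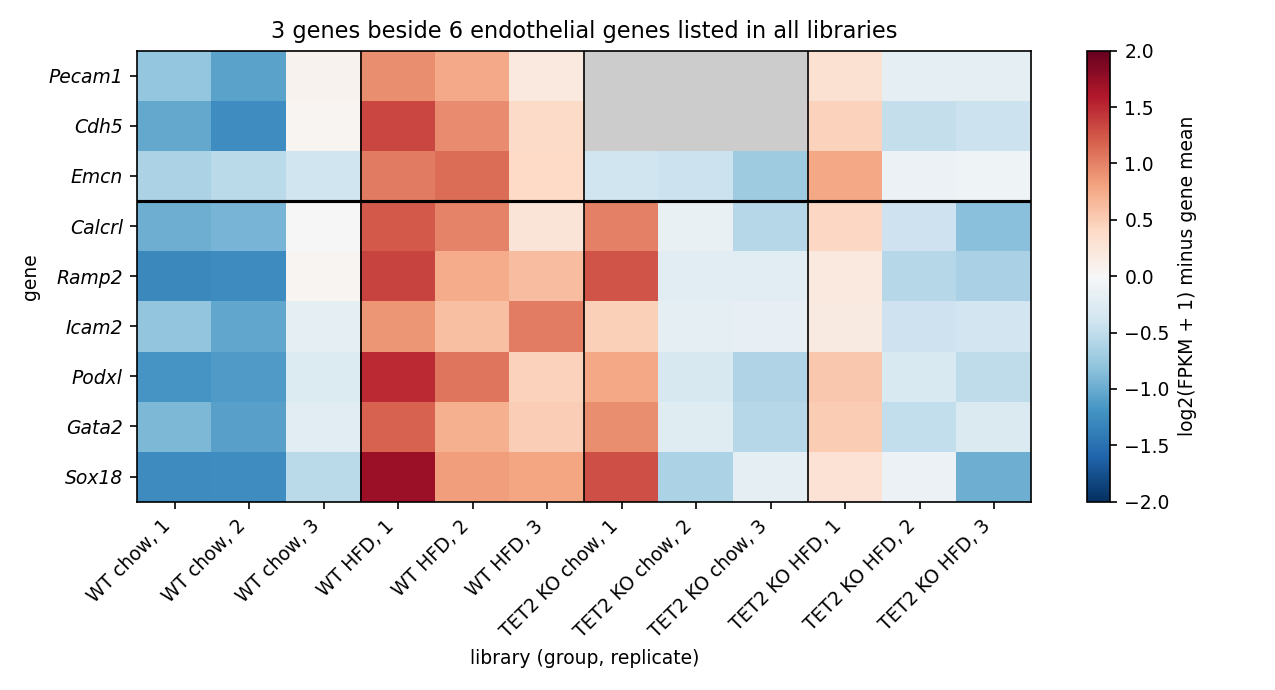
Log2(FPKM + 1) minus the gene's own mean (colour) for Pecam1, Cdh5 and Emcn (above the black line) and 6 endothelial genes with values in all 12 libraries (below), with grey where a gene was not listed. The 6 genes were listed because, on chow, their mean levels in TET2 KO exceeded those in WT, and in TET2 KO chow replicate 1 their median is 0.97 above their means, while Emcn, not listed there, is 0.40 below its own.

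Markers of other cells moved in the same comparisons, and their part in the results was not tested. With HFD in WT, 7 of 8 NK cell genes were listed and called higher, with a summed level of 93.1 to 154 FPKM in WT HFD and 30 to 50.7 FPKM in WT chow, with Gzma and Nkg7 the most abundant. Of 10 pan-leukocyte genes, 2 were listed, Arhgdib (0.33, SE 0.13) and Cd52 (0.42, SE 0.17), both called higher, and of 10 T cell genes 2 were listed, Lck (0.63, SE 0.23) and Cd8a (0.42, SE 0.18), also called higher. Of 10 monocyte and macrophage genes, 4 were called lower and 2 higher, beside 3607 lower and 3105 higher of the 7330 listed genes. The summed level of the listed monocyte and macrophage genes was 961 to 1717 FPKM in WT HFD and 1691 to 3124 FPKM in WT chow. Most of it was Chil3, a product of alveolar macrophages, which fell by 1.07 (SE 0.30), while Csf1r rose by 1.21 (SE 0.24). Platelets carry CD31 too, and of 7 platelet genes 3 were listed: Itga2b fell by 0.47 (SE 0.18), Gp1ba was called lower as well, and Ppbp was at 0.87 (SE 0.46, edgeR, adjusted p = 0.33) and was not called. Retnlg, the 1 listed gene of 7 neutrophil genes, fell by 1.47 (SE 0.50) and was called. Reln, 1 of 2 listed lymphatic genes, was called higher (0.80, SE 0.21). Pericyte and smooth muscle genes had 3 of 7 listed, with 1 called higher and 2 lower. Fibroblast genes had 2 of 7 listed, with 1 called higher.

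Markers of the lung epithelium were split. Ager and Hopx, both markers of alveolar type 1 cells, rose with HFD in WT by 1.34 (SE 0.29) and 1.18 (SE 0.26), and on HFD were lower in TET2 KO than in WT by 1.06 (a difference of -1.06, SE 0.30) and 0.73 (-0.73, SE 0.23). They were the 2 listed genes of 10 in that comparison, and their summed level was 28.8 to 48 FPKM in TET2 KO HFD and 70.3 to 85.3 FPKM in WT HFD. In WT chow replicate 3, Ager stood at 26.9 FPKM, against 13.2 and 13.5 FPKM in the other WT chow libraries. Epcam, a general epithelial surface marker, fell with HFD in WT by 0.70 (SE 0.22), with no overlap between the groups. Of the remaining listed epithelial genes, Scgb1a1 differed by -0.58 with HFD in WT (SE 0.29, edgeR, adjusted p = 0.269) and Sftpb by 0.90 (SE 0.46, edgeR, adjusted p = 0.287), and neither was called.

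When the genotypes were compared on HFD, 0 of 10 pan-leukocyte, 0 of 10 T cell and 0 of 7 B cell genes were listed. Blood-cell markers were nevertheless among the listed genes. Ccr2, a chemokine receptor of monocytes, fell by 1.05 in TET2 KO (SE 0.35), the platelet gene Gp1ba rose by 0.83 (SE 0.30), and the NK cell gene Ncr1 was at -1.14 (SE 0.52) and was not called. Of the markers of lymphatic endothelium, 3 of 5 were listed. Pdpn fell by 0.78 (SE 0.24) and Reln by 0.75 (SE 0.25), and Lyve1, the most abundant of them, was at -0.76 (SE 0.33) and was not called. With HFD in TET2 KO, where Emcn rose and 2.13% of the genes the study adjusted were called higher, markers moved in both directions. Of 4 mesothelial genes 3 were called higher, with a summed level of 3.05 to 6.15 FPKM in TET2 KO HFD and 0.659 to 1.27 FPKM in TET2 KO chow. Of 7 fibroblast genes 3 were called higher, with a summed level of the listed genes of 3.06 to 7.65 FPKM and 2.04 to 2.36 FPKM, and the B cell gene Blk was called higher as well. Of 10 monocyte and macrophage genes 6 were listed, all lower, and 4 were called, with a summed level of 2764 to 4960 FPKM in TET2 KO HFD and 5529 to 8295 FPKM in TET2 KO chow. Of 10 T cell genes 3 were called lower, as were the neutrophil gene Mmp8 (-1.33, SE 0.42), Epcam (-0.60, SE 0.21) and the lymphatic gene Prox1 (-0.63, SE 0.25). Of the 1628 genes listed for the diets in TET2 KO, 777 were called lower.

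On chow, where the 6 endothelial genes were listed, markers of other cells moved with the genotype too. Of 10 T cell genes 7 were listed and 5 called higher in TET2 KO, with a summed level of 223 to 291 FPKM in TET2 KO chow and 137 to 218 FPKM in WT chow, and 2 of 8 NK cell genes, Ccr2 and the lymphatic gene Mmrn1 were also called higher. Called lower were 4 of 7 fibroblast genes, 3 of 4 mesothelial genes and Scgb1a1, which fell by 0.90 (SE 0.18). Of the 1298 listed genes, 397 were called higher and 597 lower. Their part in the levels of the endothelial genes was not tested. None of the marker genes listed in a comparison was at 0 in any library of it.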

How the data were processed

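Libraries of poly(A) RNA came from CD31+ lung cells of 3 mice in each of 4 groups. According to the study's methods, the authors aligned paired-end reads with HISAT2, counted them with featureCounts and compared groups with DESeq2. The build in the submitters' processing notes is mm10, and versions, annotation release and strand setting are not given in the sources used here. The authors deposited raw counts, a normalized signal (the count divided by 1 size factor per library and table), FPKM values, gene lengths, and their own log2 fold changes with a p-value before and after adjustment. Each deposited table lists only genes with an unadjusted p-value under 0.05 (checked on the files). Those p-values served to find the number of genes adjusted, and the authors' fold changes were not used.

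Members and gene lists were chosen with earlier results of these data known. The main test was edgeR 4.0.16 (quasi-likelihood, R 4.3.3) on the counts of all listed genes, with the 2 groups compared and size factors recovered from the files. Benjamini-Hochberg values of the edgeR comparisons of 2 groups run over the number of genes the study adjusted, with unlisted genes taken as not ranked above the listed ones. For the interaction they run over the 975 genes of its fit. The fit saw listed genes only, a selected set. Ratios were tested by exact permutation over libraries, within pairs of groups only, since no pair of the genes has values in all 12 libraries. Depth was recovered from counts, lengths and FPKM. Fits were tested on simulated data. Alternatives were DESeq2 1.42.0, limma-trend (limma 3.58.1, pseudocounts 0.5 and 8), library totals, TMM, a median log2 ratio of 0, a minimum mean of 10 normalized counts, the adjusted p, the replicate number as a block and leaving out each library.

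Genes named were the 3 members, up to 4 called genes per endothelial list by mean FPKM where a member was called, up to 2 listed genes per marker list by mean FPKM, and 5 genes most like each member (pseudocount 1). Promoter sequence is RefSeq's for GRCm38.p6. Gp1ba, Epcam and Reln and the 6 endothelial genes of all libraries were named after their values were seen, as was Tet2 for its place in the design. Python 3.11.15 with scipy 1.17.1 was used.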

Additional observations from a re-analysis of the deposited data

How the results depend on the processing

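With HFD in WT, all 3 genes kept their direction and their call under every alternative other than the adjusted threshold, at which Emcn passed and Cdh5 (1.58, edgeR, adjusted p = 0.0603) and Pecam1 (1.19, edgeR, adjusted p = 0.073) were not. Emcn in TET2 KO (0.98), Cdh5 (-1.02) and Pecam1 (-0.67) for TET2 KO against WT on HFD also missed that threshold, as did all but 12 of the endothelial genes called with HFD in WT and all (0 left) in each other comparison. Leaving out 1 library at a time gave, for TET2 KO against WT on HFD, -0.86 to -0.51 for Pecam1, -1.40 to -0.77 for Cdh5 and -1.19 to -0.55 for Emcn, and -1.21 to -0.58 for the Emcn interaction. The endothelial genes called then numbered 14 to 36 for TET2 KO against WT on HFD, 0 to 6 on chow and 0 to 1 for the diets in TET2 KO. The Emcn to Cdh5 ratio with HFD in WT ran from -0.24 to 0.31 and reversed without WT HFD replicate 2 (-0.05) or WT chow replicate 3 (-0.24). The other 5 ratio differences kept their sign. Emcn was called lower in TET2 KO on HFD with DESeq2 (-0.74), TMM (-0.89) and the median log2 ratio set to 0 (-0.83), and TMM gave -1.16 for the interaction. DESeq2 called 2 endothelial genes with HFD in TET2 KO and 5 for TET2 KO against WT on chow. The study had listed these genes, and Emcn, by DESeq2 in the same contrasts, so the DESeq2 calls are no separate support. TMM moved the median of listed genes by 0.27 for the diets in TET2 KO and by -0.11 for TET2 KO against WT on HFD. The cause of these changes was not tested, except that fewer libraries entered where 1 was left out.

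The labels link libraries of different groups by replicate number only. Same-numbered libraries did not all deviate together in any comparison (correlations of -0.13 to 0.20), beside -0.41 to 0.37 for differently numbered ones. Whether libraries shared a day or a batch is not stated in the labels and was not tested. With the replicate number as a block, Emcn for TET2 KO against WT on HFD was called (-0.78), the interaction was -0.75 and not called, and no other call on the 3 genes changed. Each group holds 3 mice, which limits the precision of all comparisons.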
